A study of Arabidopsis thaliana with 9 samples.

Results

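The genes described here carry symbols of auxin gene families of *Arabidopsis*, and whether each one responds to auxin was not tested. They were chosen by symbol, as genes with their own probe set in the platform annotation whose symbol is SAUR, IAA, ARF, PIN, PILS, LAX or AFB with a number, or GH3 with a number after a point. Of 13350 genes with such a probe set, 11 met the rule, 7 of the *IAA* family and 4 of the *GH3* family, each with 1 probe set. The RefSeq gene table holds 24 *IAA* and 5 *GH3* symbols, and the others are not analysed here. None of the genes found was a *SAUR*, *ARF*, *PIN*, *PILS*, *LAX* or *AFB* gene, so the transport families and the auxin response factors are not analysed here, and the genes are called *Aux/IAA* and *GH3* genes in what follows.

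The arrays compared mature leaves of 45-day-old transgenic *Arabidopsis* (Col-0) grown under normal conditions with 12 h of light. *MeGRXC15*-OE plants, labelled MeGRX232-OE in the deposited data, overexpressed a cassava CC-type glutaredoxin, fused to GFP and driven by the 35S promoter, and their 3 arrays came from lines 3, 9 and 12. MeGRX360-OE plants, by their label, overexpressed another cassava glutaredoxin, for which the sources used here give no promoter, and their arrays came from lines 5, 11 and 20. Control plants carried the empty vector pG1300 and gave 3 arrays, whose lines are not stated outright. All 3 groups were thus transgenic, and the cassava transcripts themselves were not checked here.

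Auxin acts in the nucleus by joining an Aux/IAA protein to an F-box receptor of the TIR1/AFB family, after which the Aux/IAA protein is destroyed. Aux/IAA proteins otherwise hold auxin response factors in check, and many *Aux/IAA* genes are themselves switched on by auxin. GH3 enzymes join auxin or related acids to amino acids and so lower the free hormone, and several *GH3* genes are also rapid auxin targets, which makes transcripts of both families common markers of the response.

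The values are intensities on a linear scale, normalized between arrays by the authors, and every fold change is a difference of group means on the log2 scale. Array medians lay between 28.1 and 30.2, and across probe sets the log2 values of arrays of 1 group correlated at 0.967 to 0.991. A gene is said to rise or fall where the p-value from limma, adjusted over 22746 probe sets, was under 0.05. The mesophyll markers *RCA*, *LHCB4.1* and *PRK* had intensities of 1803 to 11615 on the 9 arrays and *PYK10*, a root gene, 5.14 to 6.73, while the lists for guard cells, epidermis, vascular tissue, dividing cells and flowers had no gene with a name here. On the log2 scale *PRK* fell by 1.09 in *MeGRXC15*-OE and fell by 0.51 in MeGRX360-OE against vector (limma adjusted p = 5.38e-04 and 0.0255), and *RCA* fell by 0.57 in *MeGRXC15*-OE (adjusted p = 0.00328) and was at -0.30 in MeGRX360-OE (adjusted p = 0.0676). In both overexpression groups the arrays of *RCA* and *PRK* all lay below the vector arrays. *LHCB4.1* did not pass, with log2 differences of 0.084 in *MeGRXC15*-OE and 0.43 in MeGRX360-OE (limma adjusted p = 0.821 and 0.182), and its MeGRX360-OE arrays all lay above the vector arrays. Of the mesophyll list, 3 of 15 symbols were named here. For GAPDH, the 3′ probe set over the 5′ probe set, a measure of RNA quality, gave 16.1 on MeGRX360-OE replicate 1 and 8.96 to 11.1 on the other arrays, and a 25S rRNA probe set ranged from 279 to 350 in vector plants, from 430 to 616 in *MeGRXC15*-OE and from 853 to 1073 in MeGRX360-OE. The 3′ to 5′ ratio of actin ranged from 12.0 to 20.1 over the 9 arrays. It was highest on *MeGRXC15*-OE replicate 3 and was 14.8 on MeGRX360-OE replicate 1. The part of these differences in the results was not tested. In whole leaves, fewer cells of a type and less RNA in each cell cannot be told apart.

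Against vector plants, 1 of the 11 genes rose in *MeGRXC15*-OE and 0 fell, where 9.22% of all probe sets rose and 12.8% fell. The share that rose, 9.09%, is close to that of all probe sets. None of the 11 passed in MeGRX360-OE against vector plants, where 6.74% of all probe sets rose and 9.72% fell, or in *MeGRXC15*-OE against MeGRX360-OE, where 0.0572% rose and 0.0879% fell. At an unadjusted limma p under 0.05, 3, 1 and 2 of the 11 genes were higher in the group named first and 0 lower in these 3 comparisons, where 14.5%, 12.4% and 6.44% of all probe sets were higher and 18.2%, 16.3% and 7.09% lower. With so few genes these counts are not read as a result about them. The arrays of both groups did not overlap for 2 genes in *MeGRXC15*-OE against vector (37.1% of all probe sets), for 2 in MeGRX360-OE against vector (35.4%) and for 3 between the overexpression groups (16.3%). The comparisons with vector plants share the same 3 control arrays.

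**Figure D1:**
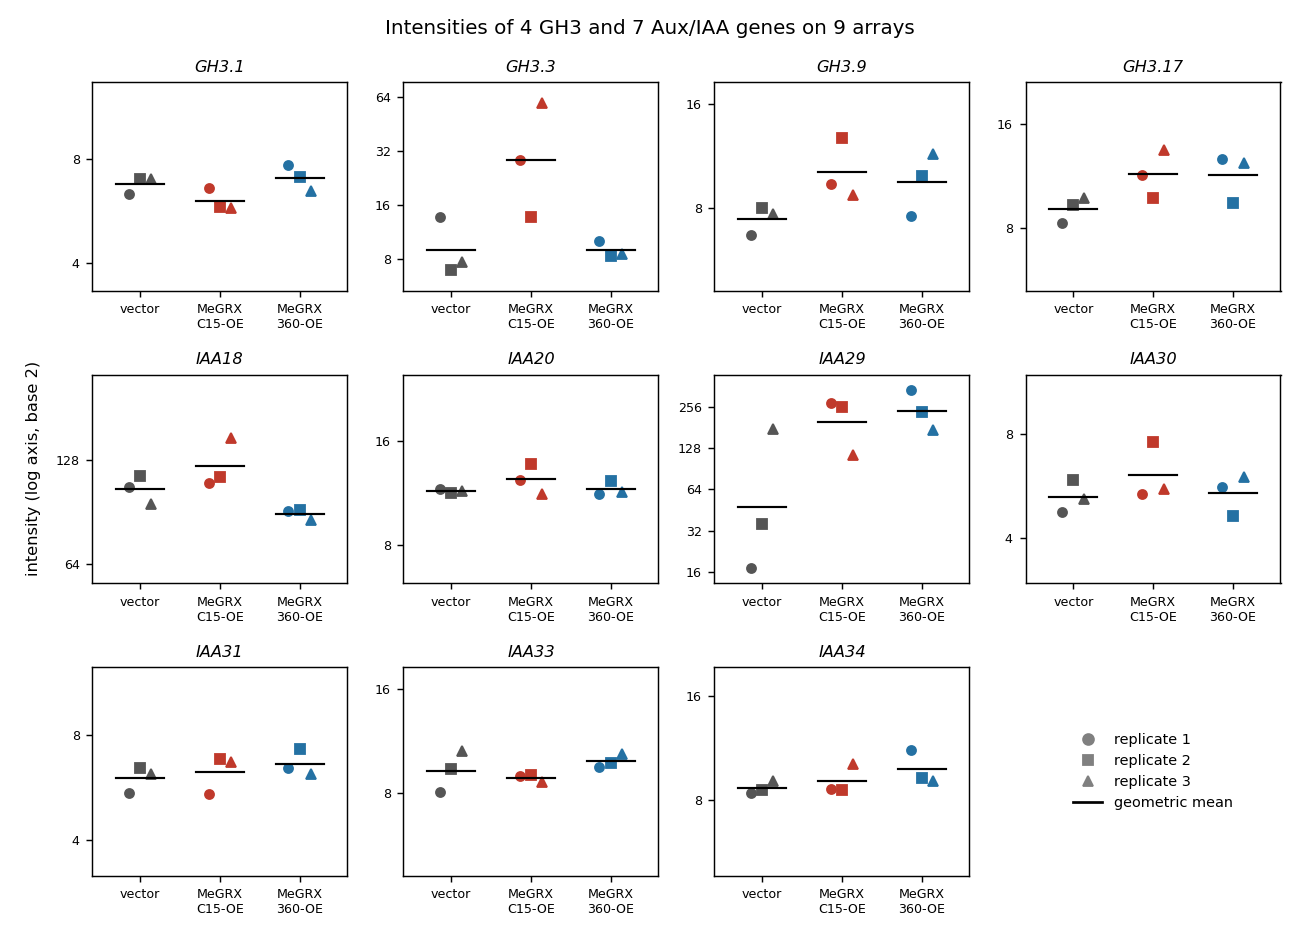
Intensity (log axis, base 2) of the 4 *GH3* and 7 *Aux/IAA* genes on each of the 9 arrays, with vector, *MeGRXC15*-OE and MeGRX360-OE side by side, 1 symbol per array and a bar at the geometric mean of the group. *GH3.3* spans 13.8 to 59.6 over the *MeGRXC15*-OE lines, *IAA29* spans 17.2 to 176 over the vector arrays, and the other 9 genes differ by less than 2-fold over all 9 arrays.

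*GH3.3* (AT2G23170), an enzyme that joins auxin to amino acids and is quickly induced by the hormone, was the gene that rose. Its intensity was 28.5, 13.8 and 59.6 in *MeGRXC15*-OE lines 3, 9 and 12, against 13.8, 6.96 and 7.77 in vector replicates 1, 2 and 3 and 10.1, 8.40 and 8.55 in MeGRX360-OE lines 5, 11 and 20. The *MeGRXC15*-OE arrays all lay above the vector arrays, but line 9 stood only just above vector replicate 1, and the lines differed among themselves by 4.31-fold. The log2 fold change in *MeGRXC15*-OE against vector was 1.66 (SE 0.47, n = 3 against 3 arrays, limma adjusted p = 0.0347), which is 3.16-fold. The call did not hold without *MeGRXC15*-OE replicate 1 (adjusted p = 0.0894) or 3 (log2 fold change 1.13, adjusted p = 0.0607), without MeGRX360-OE replicate 2 or 3 (adjusted p = 0.0521 and 0.0559), without vector replicate 2 or 3 (adjusted p = 0.122 and 0.0984), or with only the 6 arrays compared (adjusted p = 0.0771). Over all alternatives its adjusted p ran from 0.00544 to 0.122.

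MeGRX360-OE and vector leaves had nearly the same mean for *GH3.3*, with a log2 difference of -0.012 and a 95% interval of -1.08 to 1.06, which still allows a 2-fold change in either direction. Set directly against MeGRX360-OE, *MeGRXC15*-OE was higher in each of its arrays, by 1.67 (SE 0.47), but the adjusted p of 0.186 from limma did not pass. A difference between the effects of both constructs on *GH3.3* was therefore not shown.

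*GH3.9*, *GH3.17* and *GH3.1* did not pass in any comparison. *GH3.9* (AT2G47750), which is linked to auxin responses in roots, had intensities of 9.41, 12.8 and 8.71 in *MeGRXC15*-OE and 7.60, 9.90 and 11.4 in MeGRX360-OE, against 6.67, 8.02 and 7.67 in vector plants. All 3 *MeGRXC15*-OE arrays were above the vector arrays, while the MeGRX360-OE arrays overlapped them. The log2 fold changes against vector were 0.45 (SE 0.19, limma adjusted p = 0.136) and 0.36 (SE 0.19, adjusted p = 0.266).

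*GH3.17* (AT1G28130), which conjugates auxin mainly to glutamate, ranged from 9.43 to 13.4 over both overexpression groups and from 8.30 to 9.77 in vector plants. The groups overlapped, and the log2 differences from vector were 0.33 (SE 0.16) in *MeGRXC15*-OE and 0.32 (SE 0.16) in MeGRX360-OE (limma adjusted p = 0.195 and 0.229). *GH3.1* (AT2G14960), another amido synthetase of auxin, lay between 5.78 and 7.68 on all 9 arrays. Its log2 difference from vector was -0.16 in *MeGRXC15*-OE and 0.058 in MeGRX360-OE (SE 0.11 each, limma adjusted p = 0.359 and 0.791). The median log2 difference of the 4 *GH3* genes was 0.39 and 0.19 in these comparisons, and that of all probe sets 0.0025 and 0.014. All 4 genes are among the dimmest 40% of probe sets. Without those probe sets the median of the rest was -0.067 and -0.061, so it varies with intensity. The medians are therefore not compared like with like, and no shift of the family is read from them.

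*IAA29* (AT4G32280), an *Aux/IAA* gene known to respond to shade and warmth through PIF factors, had the widest range, 19.5-fold over the 9 arrays. It was at 270, 254 and 114 in *MeGRXC15*-OE lines 3, 9 and 12 and at 335, 232 and 172 in MeGRX360-OE lines 5, 11 and 20, whereas the vector replicates 1, 2 and 3 stood at 17.2, 35.4 and 176. Vector replicate 3 thus lay among the overexpression arrays and 10.2-fold above vector replicate 1, while all 6 overexpression arrays exceeded the other 2 vector arrays. The geometric means were 198, 237 and 47.5 in *MeGRXC15*-OE, MeGRX360-OE and vector plants.

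The log2 fold change of *IAA29* was 2.06 (SE 0.75, limma adjusted p = 0.0871) in *MeGRXC15*-OE and 2.32 (SE 0.75, adjusted p = 0.0700) in MeGRX360-OE against vector, so neither passed. Without vector replicate 3 the values were 3.01 (adjusted p = 0.00411) and 3.27 (adjusted p = 0.00480), and without vector replicate 1 they were 1.33 and 1.59 (adjusted p = 0.244 and 0.194). Between the overexpression groups the difference was -0.26, with a 95% interval of -1.97 to 1.45. On vector replicate 3 the 3′ to 5′ ratio of GAPDH was 8.96, the lowest of the 9 arrays, and that of ubiquitin was 2.89, the second highest, and their part in the *IAA29* value was not tested.

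*IAA18* (AT1G51950), a canonical *Aux/IAA* gene that acts in embryo and root patterning, had intensities of 109, 114 and 148 in *MeGRXC15*-OE, 91.2, 91.5 and 85.9 in MeGRX360-OE and 107, 115 and 95.3 in vector plants. The MeGRX360-OE arrays lay below all others, by a narrow margin from vector replicate 3. Against vector the log2 difference was 0.22 (SE 0.13, limma adjusted p = 0.309) in *MeGRXC15*-OE and -0.23 (SE 0.13, adjusted p = 0.301) in MeGRX360-OE. The difference between the overexpression groups, 0.45 (SE 0.13, 95% interval 0.15 to 0.76), had an unadjusted p = 0.00829 and a limma adjusted p = 0.199 and did not pass.

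*IAA20*, *IAA30*, *IAA31*, *IAA33* and *IAA34* encode divergent Aux/IAA proteins, in which the degron that auxin receptors bind is absent or, in IAA31, only partly conserved. *IAA20* (AT2G46990) ranged from 11.3 to 13.7, *IAA30* (AT3G62100) from 4.65 to 7.56 and *IAA31* (AT3G17600) from 5.42 to 7.29. *IAA33* (AT5G57420) ranged from 8.07 to 10.6, and its *MeGRXC15*-OE arrays all lay below the MeGRX360-OE arrays, whose lowest was 9.50. *IAA34* (AT1G15050), whose protein is stabilised by the kinase TMK1 in the apical hook, ranged from 8.36 to 11.2, with all MeGRX360-OE arrays, the lowest at 9.09, just above the vector arrays, the highest at 9.08. The log2 differences of these genes ran from -0.069 (*IAA33*) to 0.21 (*IAA30*) in *MeGRXC15*-OE against vector and from 0.020 (*IAA20*) to 0.18 (*IAA34*) in MeGRX360-OE against vector, with the lowest limma adjusted p = 0.383.

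**Figure D2:**
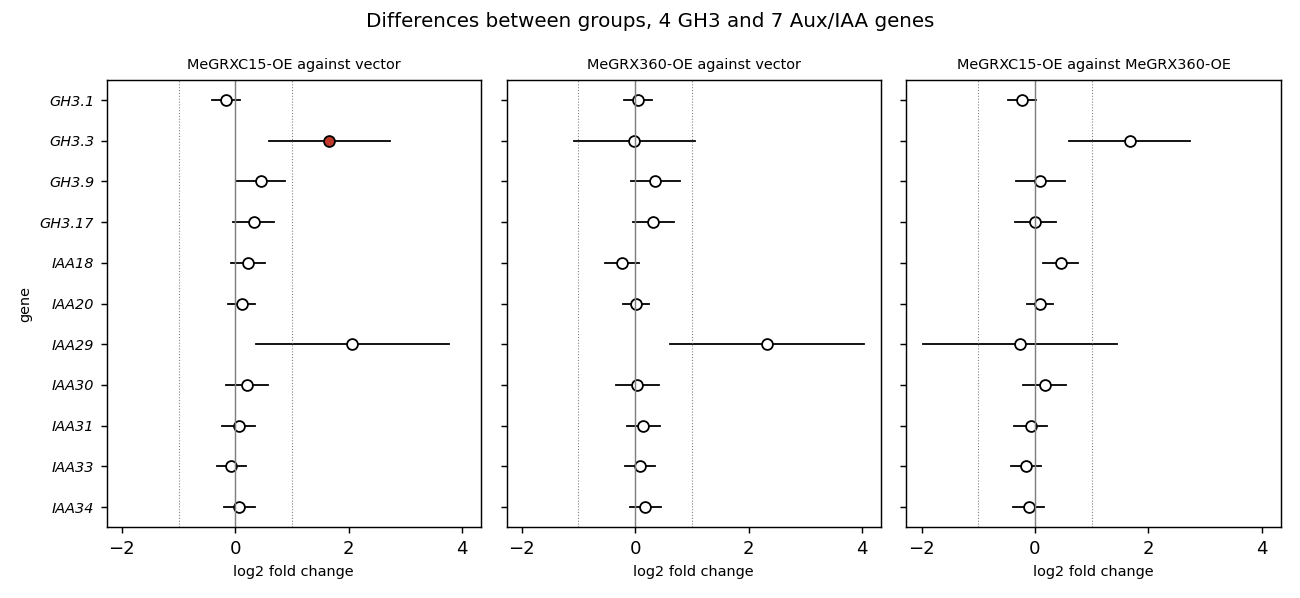
Log2 fold change with its 95% interval from limma for the 4 *GH3* and 7 *Aux/IAA* genes in the 3 comparisons, with dotted lines at a 2-fold change in either direction and a filled circle where the adjusted p was under 0.05. *GH3.3* in *MeGRXC15*-OE against vector, at 1.66, is the filled circle, and in each comparison the intervals of *GH3.3* and *IAA29* alone reach past the dotted lines.

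In each comparison the 95% interval of 9 of the 11 genes lay within a 2-fold change in either direction, and *GH3.3* and *IAA29* were the exceptions, as the plot of differences shows. For the 7 *Aux/IAA* genes the median log2 difference was 0.11 in *MeGRXC15*-OE and 0.088 in MeGRX360-OE against vector. Signal limits these intervals. Of the 11 genes, 9 (all except *IAA18* and *IAA29*, hence also *GH3.3*) were among the dimmest 40% of probe sets by mean log2 intensity, and no detection calls were used here, so how much of these intensities was background is not known.

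Beyond the symbol rule, a list of auxin genes under other symbols was searched for names in the platform annotation, which gave 14 genes. Of these, 1 rose and 1 fell in *MeGRXC15*-OE against vector, none rose and 1 fell in MeGRX360-OE against vector, and none passed between the overexpression groups. Over all probe sets, 9.22% rose and 12.8% fell in the first comparison, 6.74% and 9.72% in the second, and 0.0572% and 0.0879% in the third. With so few genes the counts are not read as a result about the list. At an unadjusted limma p under 0.05, 1 was higher and 1 lower in the first comparison, 0 higher and 2 lower in the second, and 1 (*WES1*) higher in the third. At this threshold 14.5%, 12.4% and 6.44% of all probe sets were higher and 18.2%, 16.3% and 7.09% lower. Of 36 symbols listed for auxin synthesis, 4 were named here, and none of these passed. *YUC2*, *YUC4*, *YUC6* and *YUC11* encode flavin monooxygenases of the last step of auxin synthesis. They had log2 differences of 0.012 to 0.037 in *MeGRXC15*-OE and -0.093 to 0.19 in MeGRX360-OE against vector. All MeGRX360-OE arrays lay above the vector arrays for *YUC4* and *YUC11* and below them for *UGT84B1*, *UGT74D1* and *SKP2A*. Over all probe sets, 35.4% did not overlap in that comparison. Among genes downstream of auxin or shaping its response, *HAT2*, *LBD16*, *LBD29*, *EXPA4* and *SHI* did not pass in any comparison, nor did *WAG2*, a kinase that acts on PIN carriers. *SKP2A*, an F-box protein that binds auxin and controls cell cycle factors, was at 87.1, 149 and 134 in MeGRX360-OE and 212 to 267 in vector plants, a log2 difference of -1.01 (SE 0.34, limma adjusted p = 0.0806) that did not pass. It passed with only the 6 arrays compared (adjusted p = 0.0219), without *MeGRXC15*-OE replicate 2 and with array quality weights. Over all alternatives its adjusted p ran from 0.0200 to 0.209. In *MeGRXC15*-OE *SKP2A* was at 265, 98.8 and 188, a log2 difference from vector of -0.51 (SE 0.34, limma adjusted p = 0.355). Between the overexpression groups the log2 difference was 0.50 (limma adjusted p = 0.579), so a difference between the constructs was not shown.

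*WES1* (AT4G27260), known also as *GH3.5*, encodes an enzyme that conjugates both auxin and salicylic acid, and it rose in *MeGRXC15*-OE. Its intensity was 157, 103 and 151 in lines 3, 9 and 12, against 34.3, 39.2 and 47.5 in vector plants. The groups did not overlap, and the log2 fold change was 1.76 (SE 0.37, limma adjusted p = 0.00909). In MeGRX360-OE it was at 84.7, 29.3 and 34.5, with replicate 1, the array with the highest GAPDH ratio, above the other 2, and a log2 difference from vector of 0.14 (SE 0.37, adjusted p = 0.856). The direct comparison of the overexpression groups gave 1.61 (SE 0.37, adjusted p = 0.121) and did not pass, whereas without MeGRX360-OE replicate 1 it gave 2.08 (adjusted p = 0.0214).

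*UGT74D1* fell in both overexpression groups, with all 6 arrays below the vector arrays. Its product (AT2G31750) attaches glucose to auxins and their breakdown products, and its intensity was 63.5, 53.5 and 46.4 in *MeGRXC15*-OE and 27.7, 63.3 and 53.1 in MeGRX360-OE, against 130, 141 and 105 in vector plants. On the log2 scale it fell by 1.21 in *MeGRXC15*-OE (SE 0.29, limma adjusted p = 0.0158) and fell by 1.46 in MeGRX360-OE (SE 0.29, adjusted p = 0.00973). The first of these calls was lost without vector replicate 2 (adjusted p = 0.0625). *UGT84B1*, a glucosyl transferase of auxin on the same list, did not pass (log2 differences of -0.11 in both comparisons).

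*IAGLU* (AT4G15550), annotated as an indole-3-acetate glucosyl transferase, was picked after its values were seen. It was at 47.0, 36.0 and 59.6 in *MeGRXC15*-OE and 48.7, 80.8 and 61.5 in MeGRX360-OE, against 272, 292 and 117 in vector plants, with vector replicate 3 lower than the other vector arrays but above all 6 overexpression arrays. On the log2 scale it fell by 2.17 in *MeGRXC15*-OE (SE 0.36, limma adjusted p = 0.00288) and fell by 1.75 in MeGRX360-OE (SE 0.36, adjusted p = 0.0118). *UGT74D1* and *IAGLU* did not pass between the overexpression groups (log2 differences of 0.25 and -0.42).

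**Figure D3:**
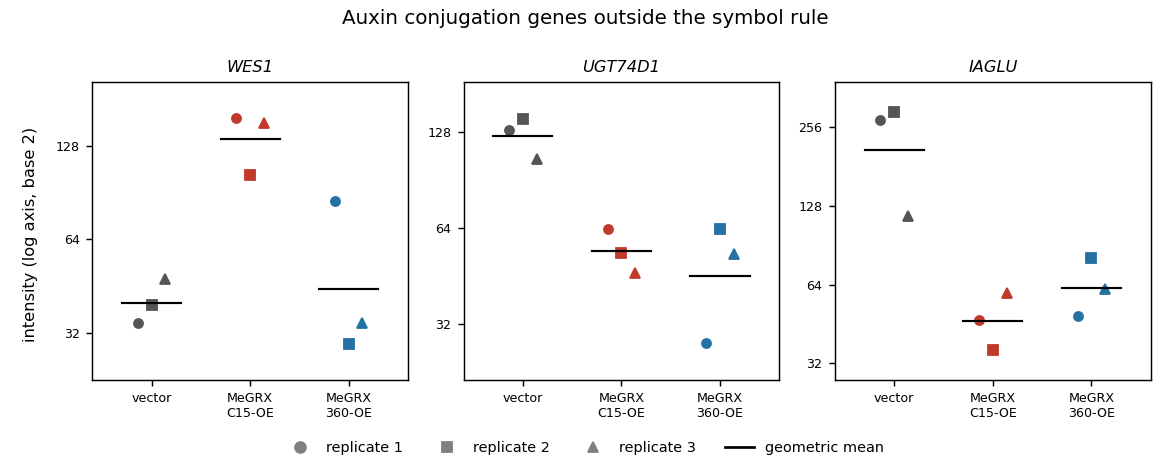
Intensity (log axis, base 2) of *WES1*, *UGT74D1* and *IAGLU* on each of the 9 arrays, with vector, *MeGRXC15*-OE and MeGRX360-OE side by side, 1 symbol per array and a bar at the geometric mean of the group. *WES1* is at 103 to 157 in *MeGRXC15*-OE and 34.3 to 47.5 in vector arrays. *UGT74D1* and *IAGLU* are lower on all 6 overexpression arrays than on the vector arrays. Only genes that passed against vector are drawn, and *IAGLU* was picked after its values were seen. The glucosyl transferase gene *UGT84B1* is not drawn and did not pass (log2 differences of -0.11 in both comparisons with vector).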

How the data were processed

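Total RNA of mature leaves was hybridized to 9 Affymetrix ATH1 arrays, 3 in each group. The deposited intensity values, 1 per probe set for 22810 probe sets, were summarised and normalized by the authors. The submitters' processing notes name RMA, while the sources used here give neither its version nor how linear values were made. The tests were designed for log2 values, so log2 was taken first. Group means of 22746 probe sets, 64 control probe sets aside, were estimated with limma 3.58.1 (R 4.3.3). The 9 arrays shared a common variance with 6 residual degrees of freedom and a prior worth 2.76, and the Benjamini-Hochberg adjustment ran over all of these probe sets. The step was tested on simulated data. Where separate plants are not stated, p-values measure only the spread between these arrays. In the overexpression groups each array came from a different line, so the spread there includes any differences between lines. The 3 arrays in each group limit the precision.

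Names came from the platform annotation, where 13513 probe sets had 1 gene, 503 several and 8794 none listed. All 11 genes matched a RefSeq locus of the same symbol. The members, lists and tests were chosen with earlier results of these data known. Genes were to be named by a rule that took every member of a family of up to 6, and in a larger family those that passed and the one with the highest mean level. No *Aux/IAA* gene passed, and those outside the rule are named to account for each. No sequences are shown, since none were used here.

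The fits were repeated with array quality weights, without the dimmest 40% of probe sets, with a second quantile normalization, with median-centred arrays, with a trended prior, with the replicate number as a block, on the 6 arrays of each comparison alone, and without each array in turn. For genes outside the symbol rule they were chosen after the data were seen. Python 3.11.15 with pandas 2.3.3 joined the tables.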

Additional observations from a re-analysis of the deposited data

How the results depend on the processing

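No member fell under any alternative. The count of members that rose in *MeGRXC15*-OE against vector, 1 as reported, was 0 with the dimmest 40% of probe sets left out (which removed *GH3.3* from the fit), 0 with only the 6 arrays compared, 2 with array quality weights (*IAA29* added) and 0 to 1 leaving out each array. In MeGRX360-OE against vector the count, 0 as reported, was 1 without the dim probe sets (*IAA29*, adjusted p = 0.0459 from limma), 2 with quality weights (*IAA29* and *GH3.9*) and 0 to 1 leaving out each array. Between the overexpression groups it was 1 with quality weights (*GH3.3*, adjusted p = 0.0489 from limma) and 0 to 1 leaving out each array (*GH3.3* without *MeGRXC15*-OE replicate 2). Calls over all probe sets rose too with quality weights, from 2098 to 3045 higher in *MeGRXC15*-OE and from 1534 to 2438 higher in MeGRX360-OE against vector, and from 13 to 231 higher between the overexpression groups, where 112 were higher without *MeGRXC15*-OE replicate 2. Of the other auxin genes, those that fell numbered 2 in MeGRX360-OE with quality weights and 2 with only the 6 arrays (*SKP2A* added), and leaving out each array gave 0 to 1 in *MeGRXC15*-OE and 1 to 2 in MeGRX360-OE. Those higher in *MeGRXC15*-OE than in MeGRX360-OE numbered 1 with quality weights (*WES1*) and 0 to 1 leaving out each array. Against vector, *WES1* in *MeGRXC15*-OE, *UGT74D1* in MeGRX360-OE and *IAGLU* in both overexpression groups passed under all 16 alternatives. *IAGLU* had been picked after its values on these same arrays were seen. The cause of the changes between settings was not tested. Each member has a single probe set, so averaging probe sets of a gene changes nothing.

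Differences that did not pass changed sign in places. With quality weights, *IAA31* was at -0.055 in *MeGRXC15*-OE and *GH3.1* at -0.0022 and *WES1* at -0.084 in MeGRX360-OE against vector, and between the overexpression groups *GH3.9* was at -0.095, *GH3.17* at -0.0069 and *IAA29* at 0.20. *IAA20* in MeGRX360-OE was at -0.029 after quantile normalization and *GH3.3* at 0.018 after centring. Leaving out each array, in *MeGRXC15*-OE against vector *IAA31* ran from -0.0081 to 0.17, *IAA33* from -0.17 to 0.024 and *IAA34* from -0.015 to 0.11. In MeGRX360-OE against vector *GH3.1* ran from -0.0019 to 0.12, *GH3.3* from -0.20 to 0.29, *IAA20* from -0.018 to 0.043, *IAA30* from -0.040 to 0.15, *IAA33* from -0.013 to 0.18 and *WES1* from -0.33 to 0.44. Between the overexpression groups *GH3.9* ran from -0.071 to 0.23, *GH3.17* from -0.13 to 0.12, *IAA29* from -0.49 to 0.14, *IAA31* from -0.14 to 0.028 and *UGT74D1* from -0.10 to 0.49.

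The labels number the replicates alike in each group, but same-numbered arrays come from different lines. Their deviations from the group means correlated at -0.21 to 0.27. Of 18 pairs of an array and a comparison, 6 had the best correlation with the array of the same number in the other group. With the replicate block, 1 member rose in *MeGRXC15*-OE (*GH3.3*, adjusted p = 0.0315 from limma) and 0 passed in each of the other comparisons.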
